A study of Homo sapiens with 24 samples.

Results

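The subject of this report is the set of nuclear genes that encode the subunits of the oxidative phosphorylation system, followed through U87-T glioblastoma cells that had or lacked the chaperone DAXX or its partner ATRX, without and with the topoisomerase II inhibitor etoposide. Members were chosen by symbol alone: protein-coding genes of the human annotation whose symbol begins with NDUFA, NDUFB, NDUFC, NDUFS, NDUFV, UQCR, COX4 to COX8 or ATP5, or is SDHA, SDHB, SDHC or SDHD, with the NDUFAF assembly factors left out. The rule named 103 genes, of which 90 nuclear genes were among the 57736 genes of the count table. The 13 protein-coding genes of the mitochondrial chromosome had no row in the count table used here and were not analysed. Of the 90, 38 belong to complex I, 4 to complex II, 9 to complex III, 19 to complex IV (with NDUFA4 and NDUFA4L2 counted there) and 20 to complex V. CYC1, also a subunit of complex III, is not named by the rule and is not in these counts. Counts were high enough for a test of 81 in each series. The other 9 had totals of 0 to 99 counts over all 24 libraries: NDUFC2-KCTD14, UQCRHL, COX4I2, COX6A2, COX7A1, COX7B2, COX8C, NDUFA4L2 and ATP5MF-PTCD1.

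U87-T is the U87 glioblastoma line carrying a floxed TERT construct. The 24 polyA RNA libraries, made with the QuantSeq kit that reads only the 3′ end of a transcript, formed 8 groups of 3. A DAXX series held WT cells, which carried an empty Cas9 vector, and DAXX_KO cells. An ATRX series held WT and ATRX_KO cells with WT libraries of its own. The paper describes a single control line, and the labels do not say whether the WT cells of the series were separate lines. Each was left untreated (control) or given etoposide, whose dose and time were not given for these libraries in the sources used here. Each knockout line was a single-cell clone with features of alternative lengthening of telomeres (ALT), so that the loss of the gene and the history of the clone cannot be told apart. In control cells DAXX stood at 37.2, 34.3 and 33.5 CPM (counts scaled to a common library size) in WT and at 6.37, 4.63 and 6.66 in DAXX_KO (log2 fold change −2.53, false discovery rate (FDR) 7.19e-11). ATRX stood at 187, 191 and 196 CPM in WT and at 87.5, 78.1 and 75.7 in ATRX_KO (−1.25, FDR 9.37e-09). Libraries held 6928950 to 13298557 counts. Of the markers of a mesenchymal glioma line, VIM stood at 1209 to 6298 CPM and CD44 at 337 to 1077 CPM, but CHI3L1 at only 0.244 to 7.64 CPM. The neuronal gene SYT1 stood at 9.89 to 36.4 CPM and RBFOX3 at 0.236 to 2.95 CPM, while the leukocyte gene PTPRC did not pass 1.75 CPM, the epithelial gene EPCAM 2.63 CPM and the endothelial gene CDH5 0.268 CPM. In bulk RNA, fewer cells of a kind and less RNA per cell cannot be told apart.

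Oxidative phosphorylation makes ATP in the inner mitochondrial membrane. Complex I takes electrons from NADH and complex II, which is also an enzyme of the tricarboxylic acid cycle, takes them from succinate. Complex III passes them through cytochrome c to complex IV, which reduces oxygen, and complex V uses the resulting proton gradient to make ATP. Complex II is encoded wholly in the nucleus, whereas the other complexes combine nuclear subunits with a few made from mitochondrial DNA. The nuclear genes are transcribed in most cells from short promoters in which sites of the factors NRF1 (letters GCGCATGCG), GABPA of the ETS family (CCGGAAGT) and YY1 (AAGATGGCG) are well known.

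Promoter windows, 250 bases before to 50 bases after a start site, were taken from RefSeq on GRCh38.p14 for 71 of the 90 members. The letters of NRF1 were found, on either strand, in at least 1 window of 11 of the 71 members (15.5%) and of 2.3% of the 27234 other genes with a window. Those of ETS were found in 12 members (16.9%, against 4.92% of the other genes) and those of YY1 in 9 (12.7%, against 2.11%). At least 1 of the 3 stood in 28 members (39.4%, against 8.7%). The other genes were not limited to those tested here or matched to the members in level, which limits these comparisons. The 120 bases upstream of a start site are printed for 5 of them, chosen because they stand for the 3 kinds of etoposide response described next. NDUFS7 and NDUFA13 rose, ATP5F1C and ATP5F1A fell in WT of both series, and SDHD was called in no etoposide comparison. Capitals mark the motif letters on the strand of the gene. NDUFS7 lies at chr19:1383787-1383906 (+ strand), NDUFA13 at chr19:19516105-19516224 (+), ATP5F1C at chr10:7788057-7788176 (+), ATP5F1A at chr18:46098297-46098416 (− strand) and SDHD at chr11:112086753-112086872 (+).
NDUFS7: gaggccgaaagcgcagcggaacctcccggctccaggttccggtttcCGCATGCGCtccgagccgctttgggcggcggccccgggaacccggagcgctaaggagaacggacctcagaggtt
NDUFA13: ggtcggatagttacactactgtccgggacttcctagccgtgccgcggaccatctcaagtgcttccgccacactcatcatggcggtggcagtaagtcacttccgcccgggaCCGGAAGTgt
ATP5F1C: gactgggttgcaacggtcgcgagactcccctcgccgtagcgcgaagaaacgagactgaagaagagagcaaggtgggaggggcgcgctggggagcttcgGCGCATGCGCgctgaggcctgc
ATP5F1A: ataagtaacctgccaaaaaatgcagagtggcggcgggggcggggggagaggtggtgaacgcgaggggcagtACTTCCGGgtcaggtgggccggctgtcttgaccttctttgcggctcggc
SDHD: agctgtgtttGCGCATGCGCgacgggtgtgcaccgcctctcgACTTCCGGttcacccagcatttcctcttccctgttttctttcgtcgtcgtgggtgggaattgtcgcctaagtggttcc
The NRF1 letters began 74 bases before the start in NDUFS7, 22 bases before it in ATP5F1C and 110 bases before it in SDHD. Because the 5 genes were chosen by their response, these positions do not say whether the letters go with it.

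As a group, these genes had high counts. The median member stood at a log2 CPM of 7.87 (DAXX series) and 7.64 (ATRX series), against 4.01 and 3.79 for all other genes tested. Summed, they took 2.06%, 1.98% and 2.03% of all counts in the 3 WT control libraries of the DAXX series and 2.59%, 2.65% and 2.56% with etoposide. In DAXX_KO the sum went from 2.09% ± 0.0415 (SD, n = 3) to 2.52% ± 0.0234. In the ATRX series it went from 1.77% ± 0.0566 to 2.31% ± 0.0206 in WT and from 1.74% ± 0.0844 to 2.01% ± 0.0782 in ATRX_KO. In WT and knockout of both series these raw shares were higher in all etoposide libraries than in all matching control libraries. The step in ATRX_KO was the smallest of the 4. After TMM scaling, which sets libraries to a common scale from most genes, the sums of ATRX_KO overlapped, at 16563.3 to 18473.9 CPM in control and 17482.9 to 19317.0 CPM with etoposide. The raw shares of WT and knockout control libraries overlapped in both series, whereas after TMM scaling the sums of DAXX_KO, at 18990.1 to 20286.2 CPM, lay below those of its WT, at 21307.3 to 22360.6 CPM.

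**Figure D1:**
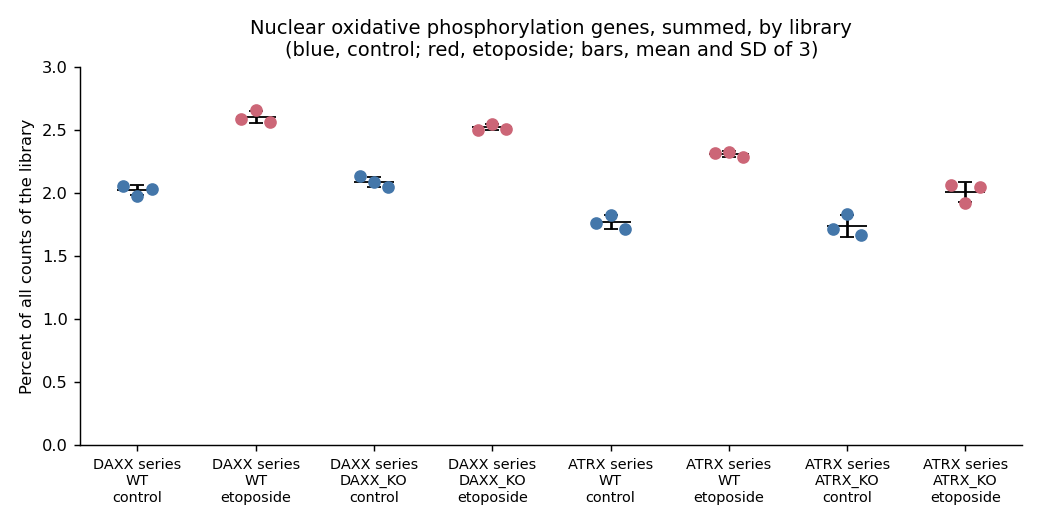
Percent of all counts of a library taken by the 90 nuclear oxidative phosphorylation genes, for the 3 libraries of each of the 8 groups (blue, control; red, etoposide), with the mean and SD. The etoposide libraries of WT in the DAXX series sit between 2.56% and 2.65%, those of ATRX_KO between 1.92% and 2.06%.

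With etoposide, most of these genes rose in WT cells of both series. In the DAXX series 55 of the 81 tested rose and 8 fell at an FDR of 0.05 by edgeR's quasi-likelihood test, where 30.1% of all genes tested rose and 30.2% fell. In the ATRX series 52 rose and 7 fell, where 31.7% of all genes rose and 29.8% fell. The median member changed by 0.35 and 0.36 on the log2 scale, and the median of all genes by 0.03 and 0.07. In WT of both series, which share no library but may be the same control line, 49 members rose and 7 fell. No member rose in the one and fell in the other. Over the 15039 genes tested in both series, 24.7% rose in both and 26.6% fell in both.

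Complex I, the NADH dehydrogenase, held the largest increases. Of its 37 tested subunits, 24 rose and 2 fell (median 0.35) in WT of the DAXX series, and 23 rose and 2 fell in WT of the ATRX series (median 0.36). NDUFS7, an iron-sulfur subunit of the arm that binds quinone, stood at 28.2, 24.1 and 24.1 CPM in the DAXX series control libraries and at 52.8, 51.7 and 51.0 with etoposide (log2 fold change 1.08, SE 0.13, FDR 7.61e-07). The groups did not overlap, and in the ATRX series the gene went from 31.3, 32.2 and 33.8 to 58.0, 56.8 and 57.2 CPM (0.86, FDR 3.63e-06). NDUFV1, the flavin-binding subunit that takes up NADH, rose by 1.07 (SE 0.15) and 1.02 (SE 0.11). The accessory subunits NDUFA13 (0.99 and 1.12) and NDUFA11 (0.92 and 0.89) rose by a like amount. NDUFV2, the partner of NDUFV1 in the same module, went the other way. It stood at 224, 215 and 217 CPM in the DAXX series control libraries and at 105, 108 and 109 with etoposide (−0.97, SE 0.06, FDR 5.83e-11), and at 187, 209 and 196 against 93.0, 97.1 and 89.8 in the ATRX series (−1.04, FDR 5.04e-09). Each NDUFV2 library with etoposide was thus well below each control library. NDUFAB1, the mitochondrial acyl carrier protein, also fell (−0.53 and −0.71). The core subunit NDUFS1 was not called (−0.11 and −0.19).

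None of the 4 subunits of complex II, succinate dehydrogenase, was called by edgeR in WT of either series. None had an unadjusted p below 0.05 and none was called by DESeq2. SDHA, the flavoprotein, changed by 0.07 (SE 0.07, FDR 0.401) and 0.07 (SE 0.11, FDR 0.606). SDHB, the iron-sulfur subunit, gave −0.21 (SE 0.12, FDR 0.146) and 0.01 (SE 0.10, FDR 0.956). The membrane anchors gave 0.05 and 0.08 (SDHC) and −0.09 and −0.29 (SDHD), with SEs of 0.17, 0.09, 0.22 and 0.30. SDHD had few counts, at 12.3 to 19.9 CPM in the WT libraries, so that changes of the size seen in complex I were within reach of its error. The medians over the complex were −0.02 and 0.04.

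Complex III, the cytochrome bc1 complex, had 7 of 8 tested subunits rising in WT of each series, with medians of 0.51 and 0.44. UQCRC2, a core subunit, stood at 208, 206 and 227 CPM in control libraries of the DAXX series and at 307, 340 and 290 with etoposide (0.60, SE 0.08). UQCR11, a small subunit, rose by 0.74 and 0.61. The exception was UQCR10, another small subunit, which fell in the DAXX series (−0.20) and was not called in the ATRX series (−0.09).

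Complex IV, cytochrome c oxidase, had 10 of 13 tested subunits rising and 2 falling in WT of the DAXX series, and 9 rising and 2 falling in that of the ATRX series (medians 0.40 and 0.34). COX7B went from 289, 280 and 293 to 411, 433 and 400 CPM in the DAXX series (0.59) and rose by 0.66 in the ATRX series. COX4I1 (0.40 and 0.28), the common isoform of the regulatory subunit 4, and COX6A1 (0.47 and 0.57) rose too. COX5B, which binds zinc, fell by 0.29 (SE 0.07) and 0.52 (SE 0.11). The isoforms of subunit 6B parted: COX6B1, the common one, rose (0.35 and 0.25), while COX6B2, known as a testis isoform, fell (−2.0 and −1.46, with FDRs of 0.00132 and 0.00577). COX6B2 was barely expressed, at 2.19, 3.18 and 2.69 CPM in control and 0.875, 0.120 and 0.939 CPM with etoposide in the DAXX series. The other tissue isoforms of the rule, COX4I2, COX6A2, COX7A1, COX7B2 and COX8C, had too few counts for a test.

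Complex V, the ATP synthase, had 14 of 19 tested subunits rising and 3 falling in WT of the DAXX series and 13 rising and 3 falling in that of the ATRX series (medians 0.31 and 0.32). ATP5MC1, a gene for the rotating c ring, stood at 493, 486 and 469 CPM in control and 628, 663 and 619 with etoposide in the DAXX series, and at 512, 513 and 516 against 708, 710 and 695 in the ATRX series (0.46 and 0.50). Its paralogue ATP5MC2, for the same mature protein, rose in the DAXX series only by this test (0.30, and 0.11 in the ATRX series; the difference between the series was not tested), and ATP5MC3 was not called in either (0.13 and −0.03). The inhibitor ATP5IF1 rose by 0.41 and 0.25. ATP5F1C, the central stalk subunit gamma, fell from 105, 99.0 and 106 to 56.5, 59.3 and 58.2 CPM (−0.78, SE 0.08, FDR 1.29e-07) and in the ATRX series from 94.9, 105 and 81.8 to 46.8, 42.5 and 42.1 CPM (−1.06, FDR 1.13e-07). ATP5F1A, the alpha subunit of the catalytic head, fell slightly (−0.24 and −0.18), while ATP5F1B, its catalytic partner, rose slightly (0.30 and 0.16). ATP5MGL was also called lower (−0.93 and −1.01), but it held 7 to 35 counts a library and is a near copy of ATP5MG, from which its reads may not be separable.

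**Figure D2:**
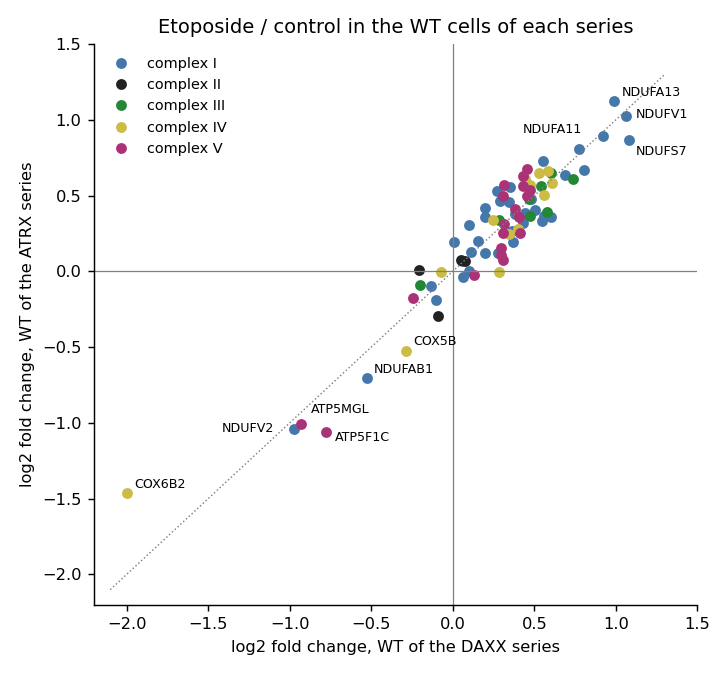
Log2 fold change of etoposide against control for the 81 tested genes, in WT of the DAXX series (x axis) and WT of the ATRX series (y axis), coloured by complex, with the line of equal change dotted. NDUFS7, NDUFV1 and NDUFA13 lie at the upper right and NDUFV2, ATP5F1C and COX6B2 at the lower left. The 4 genes of complex II, none of them called, lie between −0.294 and 0.075 on both axes.

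The response of DAXX_KO was close in size to that of its WT, and that of ATRX_KO was smaller. Replicate pairs of ATRX_KO differed most, with a chi-square per degree of freedom between their counts of 6.07 to 17.1. Pairs in the other groups gave 2.16 to 10.8. In DAXX_KO 57 of 81 rose and 5 fell (all genes: 27.1% and 27.5%), with a median of 0.39 (all genes: 0.00). In ATRX_KO 31 rose and 9 fell (all genes: 24.3% and 25.2%), with a median of 0.16 (all genes: 0.03). Of the 55 genes that rose in WT of the DAXX series, 52 (94.5%) rose in DAXX_KO, as did 69.8% of all genes that rose in that WT. Of the 52 that rose in WT of the ATRX series, 29 (55.8%) rose in ATRX_KO and 1, NDUFA10, fell, and 62.7% of all genes that rose in that WT rose in ATRX_KO. In ATRX_KO the medians were 0.09 for complex I, 0.02 for complex II, 0.23 for complex III, 0.27 for complex IV and 0.08 for complex V, against 0.36, 0.04, 0.44, 0.34 and 0.32 in its WT. In WT and knockout of both series 25 members (30.9%) rose, among them NDUFS7, NDUFV1, UQCRC2, COX7B and ATP5PD. In all of these 4 (4.9%) fell, and over all genes 14.9% rose and 18.4% fell. The 4 that fell were NDUFAB1, NDUFV2, COX6B2 and ATP5F1C. The 4 SDH genes were among the 10 members called in none of the 4 responses.

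**Figure D3:**
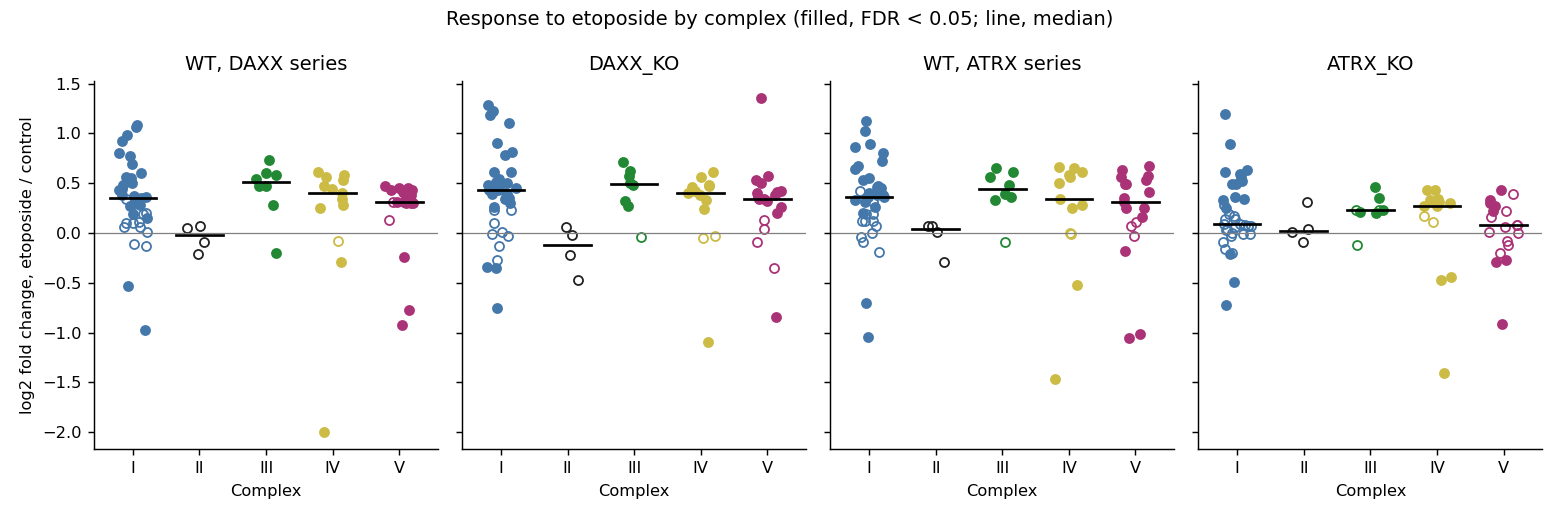
Log2 fold change of etoposide against control for each tested gene, by complex, in WT and knockout of both series. Filled points passed an FDR of 0.05 and bars are medians. The points of complex I and complex V sit lower in ATRX_KO, with medians of 0.09 and 0.08, than in the other 3 panels. Complex II has no filled point in any panel.

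The difference in response was tested as the interaction of knockout and etoposide. For ATRX_KO 8 members were called, all with a weaker increase or a decrease in ATRX_KO, and none in the other direction by edgeR (all genes: 7.64% and 8.36%). At an unadjusted p of 0.05, 2 members had a positive interaction, NDUFV2 and ATP5MGL, and DESeq2 called 1. Of the 81 estimates, 64 were below 0, with a median of −0.16 (all genes: −0.01). The median absolute log2 fold change with etoposide over all genes was also smaller in ATRX_KO, at 0.44 against 0.61 in its WT. In the DAXX series it was 0.47 in DAXX_KO and 0.55 in WT. Among the called members the largest were NDUFA10 (−0.48, SE 0.11, FDR 0.00772), ATP5MC1 (−0.44, SE 0.09, FDR 0.00495) and COX5A (−0.44, SE 0.11, FDR 0.0111), a nuclear subunit of complex IV. ATP5MC1 stood at 344, 330 and 320 CPM in ATRX_KO control libraries and at 360, 310 and 340 with etoposide, so that the groups overlapped where those of WT did not. COX5A fell in ATRX_KO from 227, 246 and 227 to 154, 167 and 182 CPM. The count of 8 was unstable: it was 4 without WT control replicate 1 or WT etoposide replicate 2, 5 without WT etoposide replicate 1 or 3 or ATRX_KO etoposide replicate 2, 15 without ATRX_KO etoposide replicate 1 and 20 without ATRX_KO control replicate 3. For DAXX_KO 2 members were called above and 2 below 0 (all genes: 8.18% and 5.9%). ATP5F1D, the delta subunit of the central stalk, had the largest interaction (1.05, SE 0.25, FDR 0.00773): it went from 12.9, 15.4 and 23.9 to 35.5, 49.1 and 48.2 CPM in DAXX_KO and from 26.2, 23.5 and 19.1 to 29.1, 30.1 and 22.7 in WT. The count of 4 was 2 without DAXX_KO control replicate 2 or WT etoposide replicate 1 or 3, 7 without DAXX_KO control replicate 3 and 8 without DAXX_KO etoposide replicate 2.

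In control cells both knockouts had more of these genes lower than higher. In DAXX_KO 14 of 81 were higher and 35 lower than in WT (all genes: 26.9% and 26.5%), with a median of −0.16 where that of all genes was 0.02. In ATRX_KO 9 were higher and 24 lower (all genes: 20.8% and 21%), with a median of −0.11 (all genes: 0.02). The split in DAXX_KO depended on the scaling. With library totals alone, the median of all genes in DAXX_KO moved to 0.20 and that of the members to 0.02, and 26 members were then higher and 21 lower. In ATRX_KO the same scaling gave 11 higher and 18 lower, with a median of all genes of 0.08. A change of scaling moves all genes of a comparison together, so the gap between members and all genes could not have changed. That the gap was alike under both scalings is therefore no separate support. The directions given next are those under TMM scaling, where the median of all genes was 0.02.

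By complex, complex V had 3 of 19 higher and 11 lower in DAXX_KO (median −0.28) and 3 higher and 8 lower in ATRX_KO (median −0.17). Complex II had none higher, also at an unadjusted p of 0.05 and by DESeq2, with 2 lower in DAXX_KO and 3 in ATRX_KO (medians −0.48 and −0.37). In complex I 8 of 37 were higher and 14 lower in DAXX_KO, and 4 higher and 11 lower in ATRX_KO. Complex III had 1 higher and 4 lower in DAXX_KO and 1 higher and 2 lower in ATRX_KO. Complex IV had 2 higher and 4 lower in DAXX_KO, whereas in ATRX_KO 1 was higher and none lower by edgeR or DESeq2 (median −0.02), with COX8A lower at an unadjusted p of 0.05.

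In both knockouts 15 members (18.5%) were lower and 4 (4.9%) higher in control cells, where 12.7% of the 15039 genes tested in both series were lower in both and 10.8% higher. The 6 with the lowest mean over both were UQCR10, ATP5MC1, NDUFV3, ATP5PF, NDUFA12 and ATP5PD. UQCR10 stood at 199, 193 and 207 CPM in WT and 115, 112 and 101 in DAXX_KO (−0.83, SE 0.07, FDR 3.53e-09), and at 172, 188 and 171 against 91.9, 96.2 and 94.2 in the ATRX series (−0.91, SE 0.08, FDR 7.75e-08). ATP5MC1 went from the WT values given above to 255, 257 and 253 CPM in DAXX_KO (−0.89, FDR 9.05e-11) and 344, 330 and 320 in ATRX_KO (−0.63, FDR 9.37e-07). No library of a knockout reached a WT library for either gene. ATP5PF, in the peripheral stalk of the synthase, was lower by −0.38 in DAXX_KO and by −0.97 (SE 0.06, FDR 3.91e-09) in ATRX_KO, where it stood at 128, 139 and 128 CPM against 261, 262 and 250. Its stalk neighbours ATP5PD (−1.0 and −0.31) and ATP5PO (−0.50 and −0.75) were lower in both lines as well. NDUFV3, a small subunit beside NDUFV1 and NDUFV2, gave −0.51 and −0.87, and NDUFA12, an accessory subunit, −0.75 and −0.57. The 4 higher in both were NDUFA1 (0.41 and 0.53), NDUFA10 (0.40 and 0.24), NDUFS8 (0.42 and 0.27) and ATP5ME (0.48 and 0.41), of which NDUFA1 and ATP5ME were no longer called in ATRX_KO without its control replicate 2 and NDUFA10 without its control replicate 1 or 2.

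The SDH genes, which did not respond to etoposide by the test, were among those lower in the knockouts. SDHC stood at 131, 121 and 118 CPM in WT and 77.5, 70.7 and 53.9 in DAXX_KO (−0.84, SE 0.17, FDR 0.000409), and at 105, 95.8 and 84.6 against 66.2, 66.4 and 73.6 in the ATRX series (−0.47, SE 0.09, FDR 0.000482). SDHB gave −0.84 (SE 0.13) and −0.36 (SE 0.10). Both were again lower with etoposide, where SDHC gave −1.11 in DAXX_KO and −0.51 in ATRX_KO, and SDHB −0.57 and −0.36. SDHA was called lower in control cells of ATRX_KO (−0.36, FDR 0.0168) and not in those of DAXX_KO (−0.11, FDR 0.201), and it was lower in DAXX_KO with etoposide (−0.20, FDR 0.0237). The call in ATRX_KO control cells was lost without ATRX_KO control replicate 3, as that of SDHB in ATRX_KO was lost without ATRX_KO control replicate 1. SDHD was not called (−0.11, SE 0.22, and −0.37, SE 0.30).

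In 6 members the knockouts differed in direction, 1 of them (1.2%) higher in DAXX_KO and lower in ATRX_KO and 5 (6.2%) the reverse, where 3.0% and 2.8% of all genes did. NDUFA6, an accessory subunit of complex I, stood at 228, 222 and 276 CPM in WT and 119, 111 and 101 in DAXX_KO (−1.10, SE 0.09, FDR 7.2e-09), but at 169, 194 and 191 in WT and 289, 353 and 239 in ATRX_KO (0.67, SE 0.11, FDR 0.000156). The difference between the knockout effects, from a model of all 24 libraries, was −1.77 (SE 0.16, FDR 1.62e-09), the largest among the called members. ATP5F1C was higher in DAXX_KO, at 159, 148 and 145 CPM (0.58, FDR 4.57e-06), and lower in ATRX_KO, at 63.8, 62.8 and 72.5 CPM (−0.50, FDR 0.00063), with a difference of 1.08 (SE 0.13, FDR 2.67e-07). UQCRH, COX7C, ATP5MJ and ATP5PB were lower in DAXX_KO and higher in ATRX_KO, with differences of −0.57, −0.64, −0.59 and −0.65. In control cells these genes were also called higher in WT of the DAXX series than in that of the ATRX series (0.253, 0.41, 0.415 and 0.341). So was NDUFA6 (0.387), while ATP5F1C was not called (0.134). The difference between the knockout effects contains this gap between the WT groups, and its part was not tested. The increases of COX7C and ATP5MJ in ATRX_KO were not called without its control replicate 2, and the decreases of UQCRH and ATP5PB in DAXX_KO were not called with library totals alone. NDUFA3, a small subunit of complex I, was lower in ATRX_KO, at 60.3, 45.3 and 32.4 CPM against 69.6, 124 and 122 (−1.20, SE 0.20, FDR 0.000101), and not called in DAXX_KO (−0.23), with a difference of 0.97. In all, 13 of 82 tested members had a difference above 0 and 17 below 0, where 17% and 17.2% of all genes did. With library totals alone the split was 20 above and 10 below, the median of all genes then being 0.12.

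**Figure D4:**
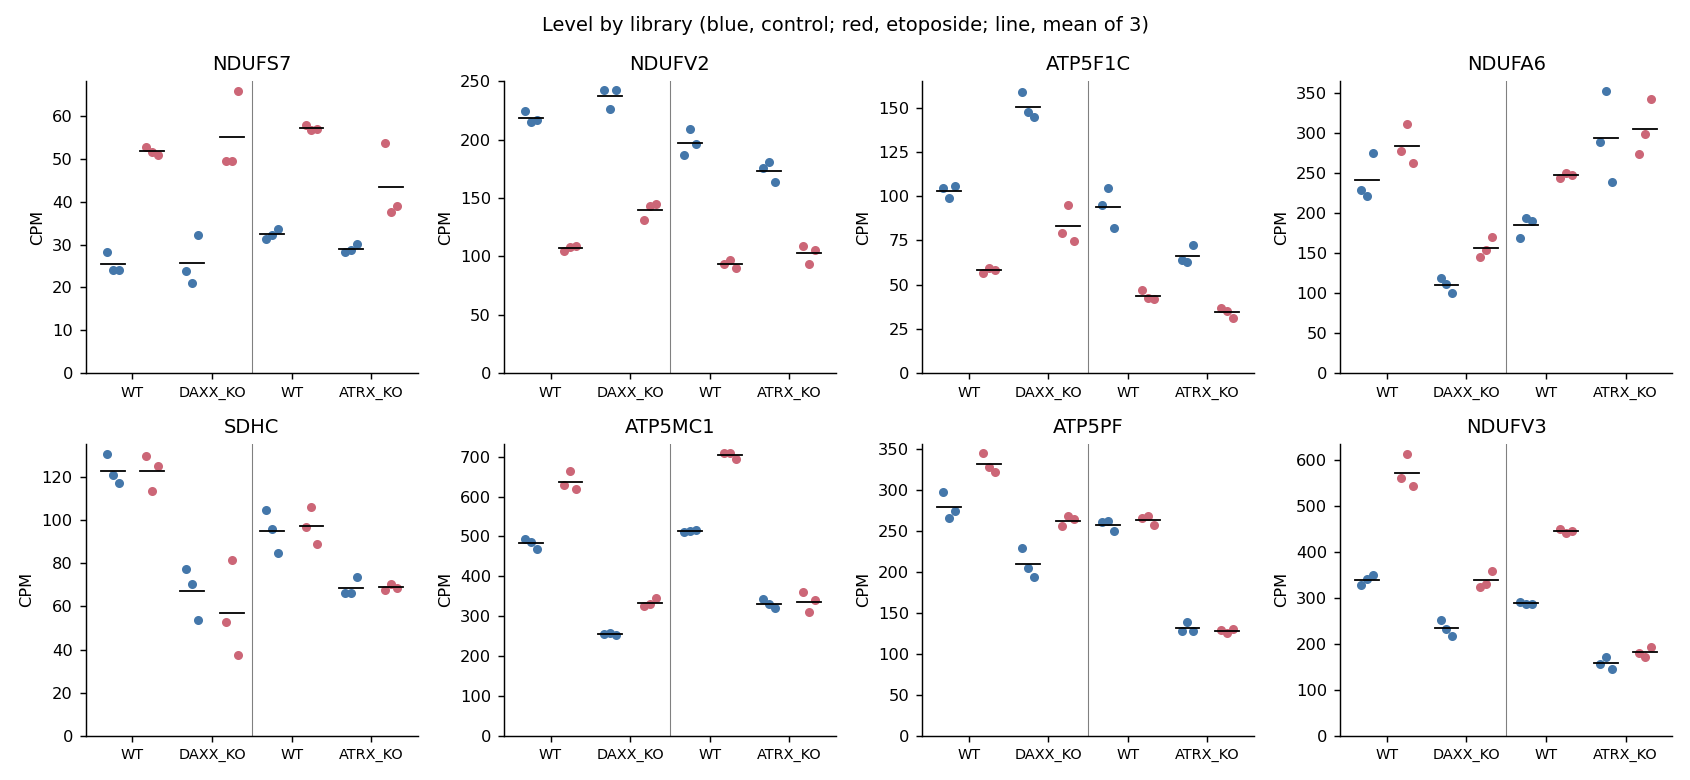
CPM of 8 genes in each of the 24 libraries (blue, control; red, etoposide; bars, mean of 3), with the DAXX series left of the line in each panel and the ATRX series right of it. NDUFS7 rises and NDUFV2 and ATP5F1C fall with etoposide in WT and knockout of both series. NDUFA6 sits lower in DAXX_KO and higher in ATRX_KO control cells, and SDHC, ATP5MC1, ATP5PF and NDUFV3 sit lower in both knockouts.

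Under etoposide the comparison with WT was more one-sided in ATRX_KO. There 1 of 81 members, NDUFA6, was higher and 45 lower (all genes: 23% and 22.9%), with a median of −0.31 (all genes: 0.01). NDUFA6 itself (0.30, FDR 0.041) was no longer called when any 1 of 5 libraries was left out, namely the 3 WT libraries and ATRX_KO replicates 2 and 3. NDUFV3 stood at 450, 442 and 446 CPM in WT and 180, 172 and 194 in ATRX_KO (−1.30, SE 0.07, FDR 6.14e-10), and ATP5PO at 358, 359 and 349 against 156, 167 and 179 (−1.10, SE 0.08, FDR 6.4e-09). Lower members were found in all complexes, with 16 in complex I, 3 in complex II, 6 of 8 in complex III, 6 in complex IV and 14 of 19 in complex V. With library totals alone 7 were higher and 34 lower, and the median of all genes was 0.11. In DAXX_KO 19 were higher and 34 lower (all genes: 27.8% and 25.3%), with a median of −0.12. NDUFB3, an accessory subunit of complex I, was the lowest, at 55.0, 73.6 and 47.3 CPM against 141, 136 and 139 in WT (−1.25, SE 0.12, FDR 3.88e-08). In all 4 comparisons of a knockout with its WT, 12 members (14.8%) were lower and 0 higher, where 7.3% of all genes were lower in all 4 and 6.3% higher. The 12 were NDUFA12, NDUFB3, NDUFS4, NDUFV3, SDHB, SDHC, UQCR10, ATP5F1B, ATP5MC1, ATP5PD, ATP5PF and ATP5PO.

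Because each knockout was 1 clone, the members were set beside their chromosomal neighbours, up to 30 tested genes on each side. The 3 members on chromosome 21, ATP5PF, ATP5PO and NDUFV3, were lower in both knockouts, and in ATRX_KO the other 166 tested genes of chromosome 21 had a median of −0.74. In DAXX_KO the other 158 had a median of −0.12. The medians of the neighbours in ATRX_KO were −0.86 around ATP5PF, −0.77 around ATP5PO and −0.61 around NDUFV3, the same direction as the genes themselves. On chromosome 22, UQCR10 lay among neighbours with medians of −0.60 (DAXX_KO) and −0.51 (ATRX_KO), and NDUFA6 among neighbours with −0.70 and −0.16. On chromosome 17, both tested members, ATP5MC1 and ATP5PD, were lower in both knockouts. The other genes of chromosome 17 had medians of −0.31 (DAXX_KO) and −0.27 (ATRX_KO). All 3 members on the X chromosome were higher in DAXX_KO, where the other tested genes of that chromosome had a median of 0.44. Both tested members on chromosome 4, ATP5ME and NDUFC1, were higher in DAXX_KO too. The other genes there had a median of 0.49 in DAXX_KO and 0.11 in ATRX_KO. By contrast the neighbours of SDHB were near 0 (0.00 and −0.02), as were those of NDUFA3 in ATRX_KO (−0.06). Whether the clones differ from WT in copy number was not tested. After subtraction of the neighbours' median, the median member stayed at −0.16 in DAXX_KO and went from −0.11 to −0.18 in ATRX_KO, with 7 of 49 and 3 of 33 called members changing sign.

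**Figure D5:**
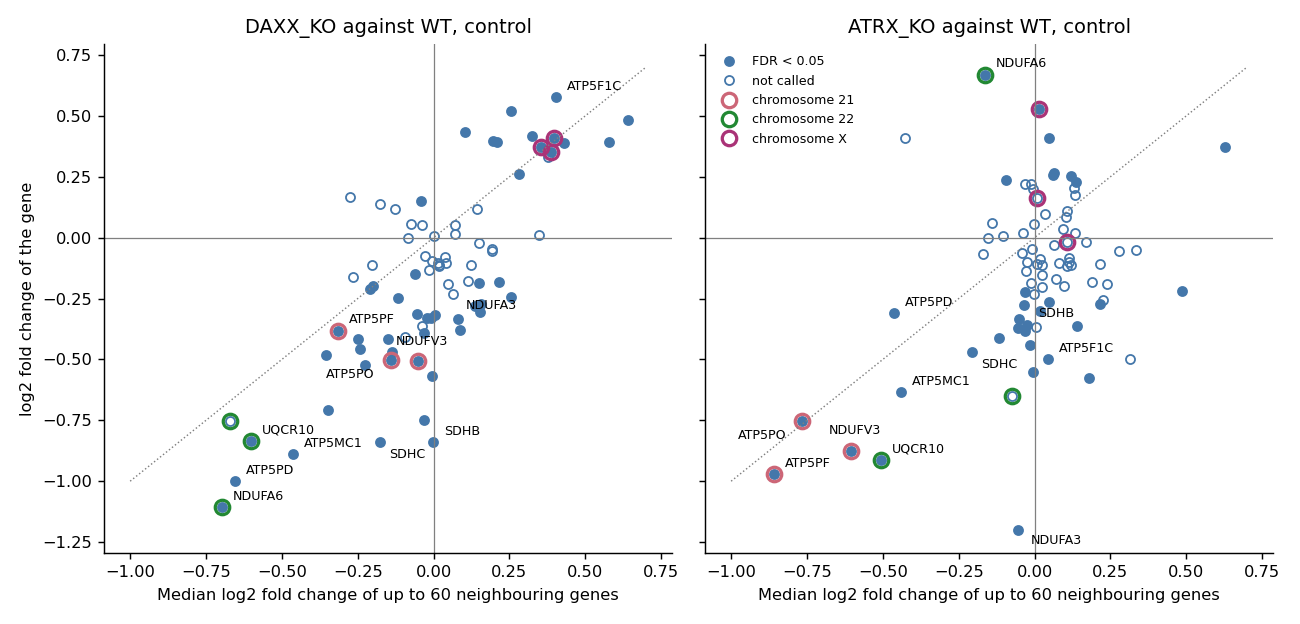
Log2 fold change of each member in knockout against WT control cells (y axis) against the median of up to 60 neighbouring genes (x axis), for DAXX_KO and ATRX_KO, with filled points at an FDR below 0.05 and the line of equal change dotted. In ATRX_KO the circled genes ATP5PF and ATP5PO of chromosome 21 lie near the line and NDUFV3 below it, whereas SDHB lies at an x value near 0 in both panels.

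The WT cells of the 2 series differed as well. In control cells 36 of 82 tested members were higher in WT of the DAXX series and none lower than in WT of the ATRX series, where 6.01% of all genes were higher and 7.22% lower, with a median of 0.21 (all genes: −0.01). At an unadjusted p of 0.05 by edgeR 3 were lower, NDUFS7, NDUFV1 and UQCRC1, and DESeq2 called 36 higher and 0 lower. With library totals alone 29 were higher and 2 lower. NDUFA1 was 219, 201 and 266 CPM in the former and 112, 116 and 107 in the latter (1.03, SE 0.14, FDR 2.18e-05), ATP5ME 153, 142 and 184 against 93.8, 95.3 and 95.2 (0.75), and COX6C 359, 348 and 409 against 238, 240 and 213 (0.69). Without WT control replicate 3 of the DAXX series 22 were called. The labels do not say how the WT cells of the series were kept apart or whether they were separate lines. Line, culture and library preparation therefore cannot be told apart here.

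Members are short genes, with a median span of 12.6 kb against 34.8 kb for the other protein-coding genes, and short genes rose with etoposide more often in general. In WT of the DAXX series 45.1% of other protein-coding genes up to 5 kb rose, and 20.2% of those over 40 kb. Among genes of 5 to 10 kb, 16 of 21 members (76.2%) and 42.9% of the others rose in WT of the DAXX series, and 76.2% and 39.1% in that of the ATRX series. Not every class of length had the larger share in the members: among genes over 40 kb, 22.2% of 9 members and 24.8% of the others rose in WT of the ATRX series, and 11.1% and 17.9% in ATRX_KO, where among genes up to 5 kb the shares were 30.8% of 13 members and 32.9%. Members with and without the letters of NRF1 in the promoter window both rose more often than they fell. In WT of the DAXX series 8 of 11 with the letters rose and 1 fell (median 0.31), and 39 of 56 without them rose and 6 fell (median 0.38). In WT of the ATRX series 5 of the 11 rose and 1 fell (median 0.12), against 39 and 5 of the 56 (median 0.36).

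Genes that serve the complexes but are not named by the symbol rule were counted in the same way. All genes gave 30.1% rising and 30.2% falling in WT of the DAXX series and 31.7% and 29.8% in the other WT. Of 47 tested assembly factors 18 rose and 9 fell in WT of the DAXX series and 20 rose and 13 fell in that of the ATRX series. Of 76 genes of the mitochondrial ribosome, which translates the mitochondrial subunits, 26 rose and 18 fell, and 28 rose and 20 fell. Of 22 genes that copy and transcribe mitochondrial DNA 5 rose and 10 fell, and 4 rose and 9 fell. Of 17 genes of mitochondrial RNA processing 5 rose and 6 fell, and 3 rose and 7 fell. Of 18 genes of the tricarboxylic acid cycle 8 rose and 7 fell, and 5 rose and 8 fell, and of 13 genes of the outer membrane and import 6 rose and 6 fell, and 5 rose and 6 fell. Of 16 regulators of mitochondrial biogenesis 3 rose and 8 fell, and 2 rose and 8 fell. The electron carrier gene CYCS rose (0.66 and 0.76), as did CYC1 (0.48 and 0.28), a subunit of complex III that the symbol rule leaves out.

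Among the regulators, TFAM, which packages mitochondrial DNA and starts its transcription, fell from 131, 132 and 144 to 74.9, 78.7 and 77.1 CPM in WT of the DAXX series (−0.76, SE 0.09, FDR 3.32e-07) and by 0.79 in that of the ATRX series. LRPPRC, which stabilises mitochondrial mRNA, fell as well (−0.90 and −0.56), and so did POLRMT, the mitochondrial RNA polymerase (−0.35 and −0.55), although in the DAXX series that call was lost under several alternatives. PPARGC1A, the coactivator PGC-1alpha, rose from 2.92, 1.89 and 1.95 to 7.13, 6.62 and 7.64 CPM (1.70, SE 0.25, FDR 8.4e-06) and by 2.35 (SE 0.24) in the ATRX series, at low counts. NRF1 gave −0.41 (FDR 0.0314) and −0.33 (FDR 0.0901), and GABPA −0.10 and 0.03 (FDR 0.753 and 0.916).

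In control cells 45 of the 76 genes of the mitochondrial ribosome were lower and 3 higher in DAXX_KO (median −0.42), where 26.5% of all genes were lower, and 39 were lower and 3 higher in ATRX_KO (median −0.34), where 21% were lower. With library totals alone these splits were 37 lower and 7 higher, and 33 lower and 3 higher. MRPL38 went from 53.2, 59.4 and 56.6 to 16.7, 20.8 and 20.1 CPM in DAXX_KO (−1.52) and was lower by 1.26 on the log2 scale in ATRX_KO. Of 13 genes of the outer membrane and import, 12 were lower in DAXX_KO, and 6 were lower and 1 higher in ATRX_KO. TOMM22, a receptor of the import pore, gave −1.50 and −1.31. Assembly factors had 13 higher and 14 lower in DAXX_KO and 6 higher and 19 lower in ATRX_KO. In the tricarboxylic acid cycle 5 genes were higher and 8 lower in DAXX_KO, and 1 higher and 7 lower in ATRX_KO. The genes of mitochondrial DNA (4 higher and 7 lower, and 4 higher and 3 lower), of mitochondrial RNA processing (2 and 6, and 3 and 2) and of biogenesis control (4 and 2, and 2 and 5) had no common direction, and with library totals alone the assembly factors in DAXX_KO turned to 17 higher and 8 lower and the cycle to 6 higher and 3 lower. Some small counts in ATRX_KO rested on 1 library: the 8 called genes of the cycle were 3 without ATRX_KO control replicate 1 and 4 without WT control replicate 1 or 2, the 5 of RNA processing were 2 without WT control replicate 2 and 1 without WT control replicate 3, and the 7 of biogenesis control were 4 without ATRX_KO control replicate 2. TFAM was lower in DAXX_KO (−0.92, FDR 4.83e-08) and not called in ATRX_KO (0.00), and CYCS was lower in ATRX_KO (−0.57, FDR 2.05e-05) and not called in DAXX_KO (0.01).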

How the data were processed

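Total RNA of U87-T cells was polyA-primed and sequenced from the 3′ end (QuantSeq) in 24 libraries, 8 groups of 3. The authors deposited 1 table of gene counts, which are estimated counts of RSEM stored as whole numbers, made by alignment with STAR to hg19 and the Ensembl GRCh37 genes. The submitters' notes name RSEM 1.2.3. The paper names no molecular identifiers for these reads. Reads from the 3′ end do not by themselves rank levels between genes, which also limits the comparison of the members' level with that of other genes. The study describes its replicates in general as biological, but the labels do not say whether these libraries came from separate cultures, so p-values measure the spread between these libraries. The labels' genotype field names ATRX for DAXX_KO libraries, and titles were followed.

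Counts were tested by edgeR 4.0.16 (R 4.3.3): glmQLFit with 1 mean per group over the 12 libraries of a series, TMM scaling, filterByExpr (minimum count 10, minimum total 15), and Benjamini-Hochberg adjustment over all genes tested, called at an FDR of 0.05. Contrasts between the series used all 24 libraries. Levels are CPM after TMM over the 24 libraries. Gene IDs (55501 of 57736) were matched to GENCODE. Named in each comparison were the 3 members with the largest increase and decrease among those called, the SDH genes, paralogue groups, ATP5IF1, up to 6 members per direction called in both knockouts, up to 4 genes of each pathway list and 8 regulators and carriers. Members named for another reason (UQCRC2, UQCR11, COX7B, NDUFAB1, NDUFS1, COX5B and the like) were chosen after their values were seen. Members and lists were chosen with earlier results of these data known. The values of 1 called member are not reported here. The test was also run on simulated counts in which few genes changed, in the knockout control group only. That run does not check a setting in which as many genes change as here. Alternatives were DESeq2 1.42.0, other scalings and filters, a replicate block, each library left out and subtraction of neighbouring genes.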

Additional observations from a re-analysis of the deposited data

Results flagged for a closer look

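Responses to etoposide that differed between knockout and WT were called by the interaction term of edgeR's model. It called 4 members between DAXX_KO and its WT and 8 between ATRX_KO and its WT. Of 81 tested members, 2 were above and 2 below 0 for DAXX_KO, where 8.18% and 5.9% of all genes were. For ATRX_KO 0 were above and 8 below 0, where 8.36% and 7.64% of all genes were. In the DAXX series the interaction was 1.05 for ATP5F1D, −0.55 for NDUFC1 and −0.54 for NDUFB3 on the log2 scale. In the ATRX series it was −0.48 for NDUFA10, −0.38 for NDUFA2, −0.36 for NDUFB9, −0.37 for NDUFS8, −0.42 for NDUFV3, −0.44 for COX5A, −0.44 for ATP5MC1 and −0.34 for ATP5PO. All 8 had a smaller increase, or a decrease, in ATRX_KO. ATP5PO and NDUFS8 were among the calls lost when 1 library was left out, as was NDUFB3 in the DAXX series.

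The effect of the knockout in control cells differed between DAXX_KO and ATRX_KO for 30 members, by the contrast of both effects in a model of all 24 libraries. Of 82 tested members 13 were above 0 and 17 below 0, where 17% and 17.2% of all genes were. The count of members was thus near the share of all genes. The difference, DAXX_KO minus ATRX_KO, was −1.77 for NDUFA6, 1.08 for ATP5F1C, 0.97 for NDUFA3, 0.59 for ATP5PF, −0.69 for ATP5PD, −0.65 for ATP5PB, −0.64 for COX7C, −0.59 for ATP5MJ and −0.57 for UQCRH. NDUFA6, COX7C, ATP5MJ, ATP5PB and UQCRH were lower in DAXX_KO and higher in ATRX_KO, and ATP5F1C was higher in DAXX_KO (0.58) and lower in ATRX_KO (−0.50). Those lower in DAXX_KO and higher in ATRX_KO were also called higher in control WT of the DAXX series than in that of the ATRX series, by 0.253 to 0.415. The difference contains this gap between the WT groups, and its part was not tested. The median change of the genes around NDUFA6 was −0.70 in DAXX_KO and −0.16 in ATRX_KO, and around ATP5PF −0.32 and −0.86. The part of chromosomal copy number in these differences was not tested.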

How the results depend on the processing

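Of the recomputed counts of called members, 157 stayed within 1.5 times the value reported and 17 did not. For the interaction of DAXX_KO and etoposide, reported as 4, the count was 7 with no filter on low counts and 2 with a replicate block. For ATRX_KO, reported as 8, it was 13 with all 24 libraries in one model and 15 with no filter. With 1 library left out the counts ranged from 2 to 8 and from 4 to 20 for these interactions. They were 45 to 49 and 25 to 39 for DAXX_KO and ATRX_KO against WT in control cells. With etoposide they were 45 to 53 and 37 to 50. The WT responses gave 58 to 61 and 50 to 57, and those of the knockouts 57 to 65 and 29 to 42. The difference between the knockout effects gave 26 to 30, and that between the WT cells of the series 22 to 33. Subtraction of the neighbours' median moved the median of ATRX_KO control cells from −0.11 to −0.18, over the replicate SD. With library totals alone COX6A1 in DAXX_KO control cells turned from lower to 0.001. The centring of the etoposide comparisons (medians −0.16 and −0.32) and the alternatives of the pathway lists were added after the data were seen. Same-numbered replicates correlated at −0.21 to 0.05 within series and −0.14 to 0.12 between them, so the numbers do not pair libraries; the block gave 13 higher and 33 lower members for DAXX_KO and 7 and 24 for ATRX_KO in control cells. Alternatives that need the mitochondrial genes were not run. Depth limits the low genes: COX6B2 held 1 to 52 counts a library and ATP5MGL 7 to 35.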

Other observations

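The nuclear genome carries many copies of mitochondrial genes, and 390 such pseudogenes were in the count table. They were looked at after the mitochondrial genes themselves were found to have no row in the count table used here. Together they took 0.454% to 0.596% of all counts as group means. MTND2P28 held 297545 counts over the 24 libraries, MTND4P12 252655, MTND1P23 232250 and MTATP6P1 197469. Reads of such copies cannot be told from those of the near-identical mitochondrial genes, so these values say nothing of the pseudogenes as genes.

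Within the mitochondrial ribosome the members with the largest decrease in ATRX_KO control cells included MRPL39 (−1.48), MRPL38 (−1.26) and MRPS6 (−1.10), of which MRPL39 and MRPS6 lie on chromosome 21, as do ATP5PF, ATP5PO and NDUFV3. In DAXX_KO they were MRPS17 (−1.61), MRPS23 (−1.58) and MRPL38 (−1.52).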
